A study of Mus musculus with 8 samples.

Results

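The genes described here are 36 genes of the cell division cycle, measured in mouse pancreatic islets after transfer of T cells that attack them. The genes were taken from a list of symbols, and a gene was measured if at least 1 probe set carried that symbol and no other in the platform annotation. On these arrays 35 of the 36 genes had such a probe set, 78 probe sets in all, out of 18194 genes and 34958 probe sets with 1 symbol. Ccnb1 had none. Each gene was read from its probe set with the highest mean over the 8 arrays. The genes fall into 16 that act at the G1/S transition and in DNA replication, and 20 that act in G2 and mitosis, of which 19 were measured.

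The islets came from NOD.Scid mice, a strain with the diabetes-prone NOD background whose scid mutation leaves it without mature T and B cells of its own. A single array held islets of untreated mice (day 0). In the diabetogenic arm, 3 arrays held islets taken 3, 4 and 8 days after injection of CD4+ T cells transgenic for the BDC2.5 receptor, which recognises a beta cell antigen. In the protected arm, 4 arrays held islets of days 3, 4, 5 and 8 from mice that received the same T cells and an antibody against interferon gamma on days -1 and 2, and no control antibody is named for the other arm. Islet RNA of 5 mice was pooled for each array and amplified after laser capture of the islets. No arm and day was repeated, so the spread in every test below is between days or between arms, not between mice, and the small number of arrays sets the precision.

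A dividing cell copies its DNA in S phase and separates the copies in mitosis. Genes of the first step, among them the Mcm2 to Mcm7 helicase subunits and the clamp Pcna, are switched on by E2F factors as cells leave G1, and genes of the second, such as Cdc20 and Ccnb2, are transcribed later through CHR and CCAAT promoter elements. Adult beta cells divide rarely, whereas activated T cells and some macrophages divide within an inflamed tissue.

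Values are the deposited probe set intensities. Differences are given on the scale log2(intensity + 2.155), which understates the change of dim probe sets, and most members were dim. The array medians lay between 3.14 and 3.96, and the highest value of a member was 32.5, for Mcm7 in the day 5 pool. Of the 35 measured members, 32 were at or above the array median on at least 2 of the 8 arrays and were tested (15 replication and 17 mitosis genes), among 16397 genes tested. Ccne2, Aurkb and Mki67, the gene of the proliferation antigen Ki-67, were not. Mki67 lay between 1.02 and 3.20 and below the array median on every array. The counts of tested members below therefore leave out 3 measured genes. Tk1 passed this filter through the day 4 arrays alone, Kif11 through those of day 8 alone and Aurka through those of days 5 and 8 alone, so that a difference between these days and the others was bound to appear in them. Kif20a passed through the protected arrays of days 4 and 5 alone, and Bub1b through the protected day 4 and diabetogenic day 8 arrays alone. Ttk passed through the untreated and day 8 arrays alone, and Bub1 through the untreated and day 4 arrays alone. Cdc6 passed through the untreated and protected day 8 arrays alone. High values on those arrays were likewise bound to appear.

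The arrays differ in a way that follows the day. Spiked hybridisation controls had a median intensity of 1.48 to 2.29 on the arrays of days 0 and 3, of 551 on day 5 and of 1559 to 1712 on days 4 and 8. A change from day 3 or from untreated islets to day 4, 5 or 8 therefore cannot be told apart from this technical step, while the arms within a day, and day 8 against day 4, lie on the same side of it. The diabetogenic arrays had fewer bright probe sets: 0.9% were at 8 times the array median or above on the day 4 array and 2.06% on the day 8 array, against 2.29% and 3.14% on the protected arrays of those days and 4.75% in untreated islets. The ratio of 3' to 5' Actb signal was 1.86 in untreated islets, 5.01 and 5.54 on the day 3 arrays and between 2.25 and 24.2 from day 4 on. On day 4 it was 2.25 in the diabetogenic and 9.24 in the protected arm, so the arms of that day differed in it. Fewer cells of a type and less RNA per cell cannot be told apart in these values.

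**Figure D1:**
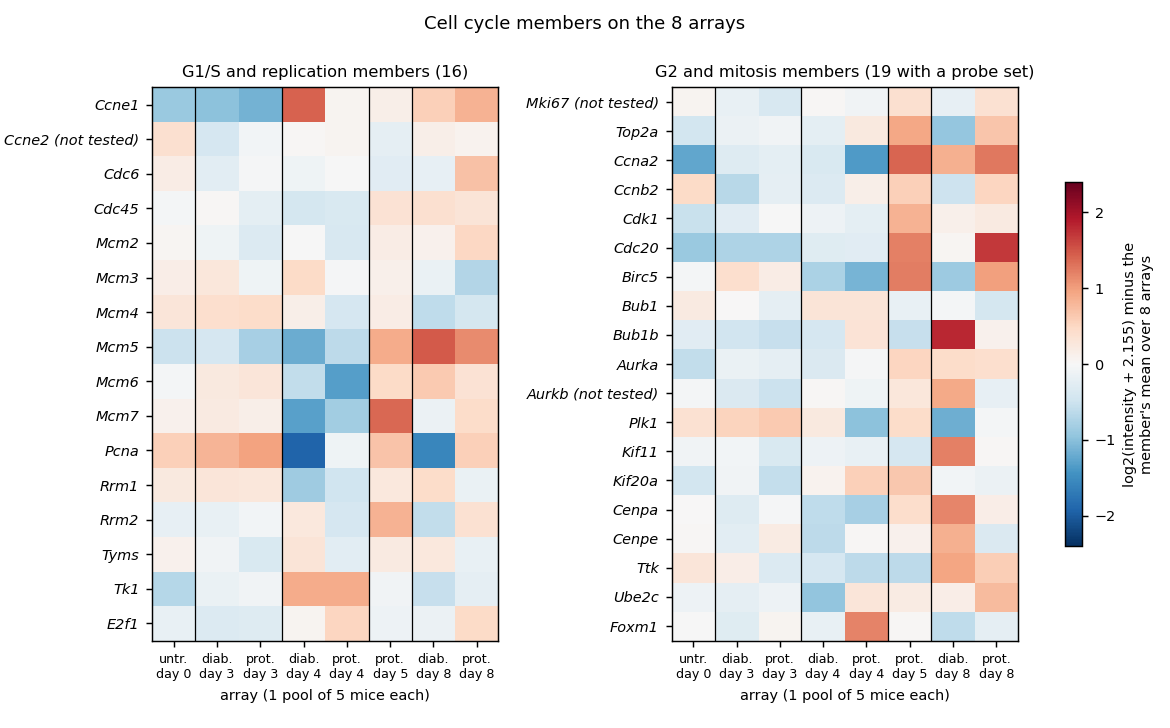
Each cell gives a member's log2(intensity + 2.155) on 1 array minus that member's mean over the 8 arrays, with replication members on the left and mitosis members on the right. Red cells gather on the day 5 and day 8 arrays, for example for Mcm5 and Ccna2, and Pcna is blue on both later diabetogenic arrays.

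A subset of the members was brighter on the arrays of days 5 and 8 than on all earlier ones. On the protected day 5 array, 11 of the 32 tested members were at least 2-fold above the untreated array and none was 2-fold below it, where 9.92% of all genes tested were above and 10.3% below by that margin. On the diabetogenic day 8 array 7 members were above and 2 below (14.8% and 23.0% of all genes), and on the protected day 8 array 6 were above and none below (9.95% and 15.2%). On day 3 no member was 2-fold above in the diabetogenic arm (2.91% of all genes), and Ccna2 alone was in the protected arm (2.23%). These counts set single arrays side by side and have no test. The groups of days were chosen after the values were seen: 9 of 32 members were higher on all 3 arrays of days 5 and 8 than on all 5 arrays of days 0, 3 and 4, namely Mcm2, Mcm5, Mcm6 and Cdc45 of the replication genes and Ccna2, Cdk1, Cdc20, Aurka and Cenpa of the mitosis genes. Of all genes tested, 5.01% did so. No member was lower on all 3, as 2.18% of all genes were. Aurka is among the 9, Aurka and Kif20a are among the 11, and Aurka, Bub1b and Kif11 are among the 7. They passed the filter only through sets of arrays that include those counted. Their high values there were bound to appear and are no support for a rise.

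Day 8 could be compared with day 4 across both arms on arrays of like spiked-control level, a comparison added after the data were examined. In the diabetogenic arm these arrays differed in the 3' to 5' ratios and in the share of bright probe sets. Mcm5 and Ccna2 were called higher on day 8 (limma, Benjamini-Hochberg adjusted p under 0.05 over all 16397 genes) and no member lower. Of all genes 0.909% were called higher and 0.238% lower. The median difference was 0.30 over the 15 replication members and 0.61 over the 17 mitosis members, against 0.14 over all genes tested. Both day 8 arrays were above both day 4 arrays for 13 of 32 members and below for 6, against 22.7% and 13.7% of all genes. Kif11 and Aurka among the 13, and Tk1 and Kif20a among the 6, were tested only through the arrays on which they were high. Ttk, among the 13, passed the filter only through the untreated array and those of day 8. Bub1, among the 6, passed only through the untreated array and those of day 4. These entries are no support for a change.

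Mcm5 is a subunit of the hexameric MCM helicase that unwinds DNA at the replication fork. Its intensity was 3.82 in untreated islets. In the diabetogenic arm it was 4.29, 1.57 and 21.6 on days 3, 4 and 8. In the protected arm it was 2.76, 3.37, 13.6 and 16.6 on days 3, 4, 5 and 8. The day 5 array and both day 8 arrays thus lay above every earlier array. The log2 difference of day 8 from day 4 was 2.22 ± 0.44 (SE; limma adjusted p = 0.00747, higher in both arms), and from day 3 it was 1.90 ± 0.44 (limma adjusted p = 0.00374). This probe set carries the suffix _x, which the manufacturer gives to sets with some probes that match other transcripts. The other 2 Mcm5 probe sets differed by -0.15 and -0.30 between day 8 and day 4, and the call against day 4 was lost with all probe sets of each gene averaged and without the arm as a block. That against day 3 was lost with probe sets averaged.

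Ccna2 encodes cyclin A2, the partner of Cdk2 in S phase and of Cdk1 in G2. It was at 1.25 in untreated islets, 4.39 and 4.73 on day 3 (the diabetogenic array first, here and below), 4.16 and 1.0 on day 4, 19.2 in the day 5 pool and 12.5 and 17.2 on day 8. Again the 3 latest arrays did not overlap with the others. The difference of day 8 from day 4 was 1.92 ± 0.45 (limma adjusted p = 0.0277) and from day 3 it was 1.33 ± 0.45 (limma adjusted p = 0.0448). A second Ccna2 probe set stayed between 3.38 and 6.97 and was lower on day 8 than on day 4 by 0.44, and with probe sets averaged neither call held. Both calls were also lost without the arm as a block, without the variance trend, without the filter on dim probe sets or with quantile normalization. The call against day 4 was lost with cyclic loess normalization too, and that against day 3 with each array centred on its median or with the smaller pseudocount.

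Among the members that were not called between day 4 and day 8, the next largest differences in size were those of Mcm6, Cenpa, Ttk and Tk1, followed by Mcm7. Mcm6 and Mcm7 are further helicase subunits. Mcm6 had 3.05 and 1.0 on day 4, 8.71 in the day 5 pool and 10.05 and 7.93 on day 8, a log2 difference of 1.45 ± 0.43 (limma adjusted p = 0.0913). Mcm7 had 3.31 and 5.32 on day 4, 32.5 in the day 5 pool and 9.98 and 16.1 on day 8 (1.22 ± 0.46, limma adjusted p = 0.201). Untreated islets had 5.47 for Mcm6 and 12.3 for Mcm7, and both genes were lowest on the day 4 arrays. Cenpa, the histone H3 variant of centromeres, had 3.48 in untreated islets, 2.37 and 3.35 on day 3, 1.52 and 1.08 on day 4, 5.37 in the day 5 pool and 10.6 and 4.12 on day 8 (1.38 ± 0.42, limma adjusted p = 0.09998). All 3 Cenpa probe sets were higher on day 8 than on day 4, by 1.38, 0.67 and 0.27. Ttk, a kinase of the spindle checkpoint, had 3.88 in untreated islets, 3.34 and 1.73 on day 3, 1.54 and 1.0 on day 4, 1.0 in the day 5 pool and 7.35 and 5.26 on day 8 (1.30 ± 0.40, limma adjusted p = 0.101). Tk1, the thymidine kinase of the salvage pathway, went the other way, with 7.27 and 7.19 on day 4 and 1.30 and 2.21 on day 8 (-1.27 ± 0.40, limma adjusted p = 0.118). On the arrays of other days Tk1 lay between 1.0 and 2.64, below the array median on each, so that it was tested only because of its day 4 values.

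**Figure D2:**
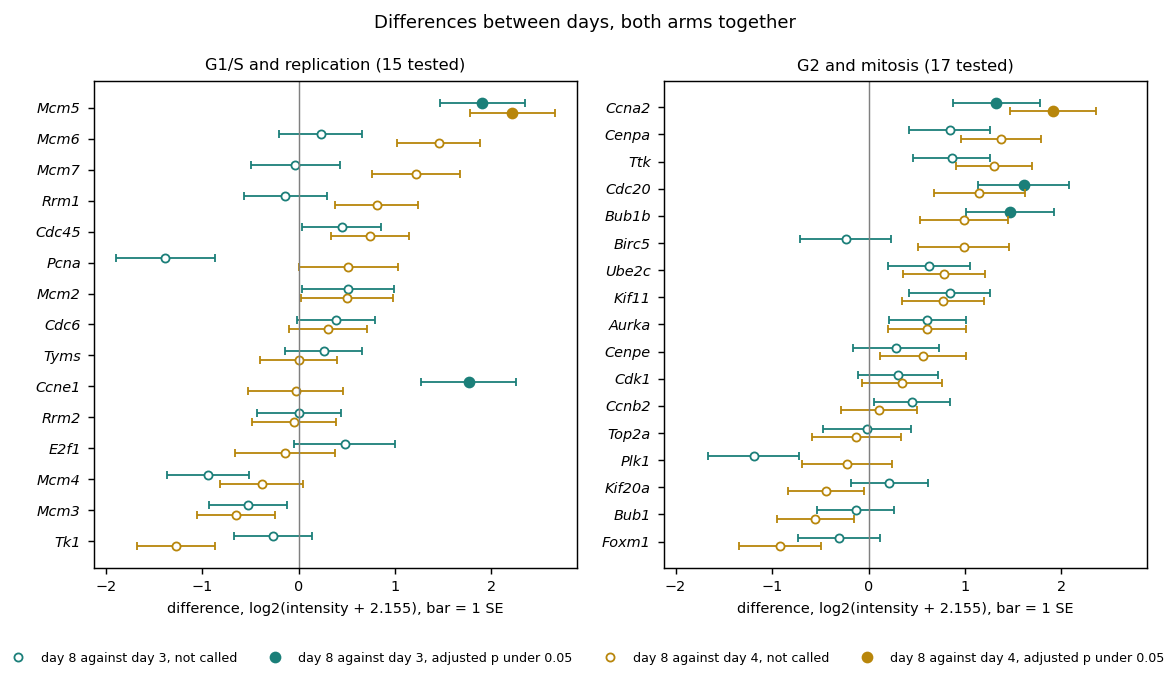
Points give the log2 difference of day 8 from day 3 and from day 4 for the 32 tested members over both arms, with bars of 1 SE and filled points for an adjusted p under 0.05. Mcm5 and Ccna2 are filled in both comparisons, which share the day 8 arrays, while Ccne1, Cdc20 and Bub1b are filled against day 3 only.

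Against day 3, 5 members were called higher on day 8 and none lower, where 3.78% of all genes were called higher and 10.5% lower. They were Mcm5, Ccne1, Cdc20, Bub1b and Ccna2. Pcna, the largest difference downward, was not called at -1.38 ± 0.52 (limma adjusted p = 0.0698), but was called at -1.51 with each array centred on its median (limma adjusted p = 0.0388) and at -1.38 without the day 4 arrays (limma adjusted p = 0.0218). The median difference was 0.23 over the replication members and 0.45 over the mitosis members, against -0.03 over all genes tested. This comparison crosses the step in the spiked controls and shares the day 8 arrays with the comparison above.

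Ccne1 encodes cyclin E1, which drives entry into S phase with Cdk2. Its intensity was 4.37 in untreated islets, 4.02 and 3.37 on day 3, 30.2 and 10.5 on day 4, 11.3 in the day 5 pool and 15.9 and 19.6 on day 8. All 5 arrays from day 4 on were above all 3 earlier ones, and the same 5 arrays are those with bright spiked controls. The log2 difference from day 3 was 1.79 ± 0.49 on day 4 (limma adjusted p = 0.00912) and 1.76 ± 0.49 on day 8 (limma adjusted p = 0.0152). The other Ccne1 probe set, 1 without the _x suffix, differed by -0.05 and 0.42, and with the probe sets averaged both calls were lost. The day 8 call was lost as well with quantile normalization or without the arm as a block.

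Cdc20 activates the anaphase-promoting complex and so starts the separation of sister chromatids. It was at 3.18 in untreated islets, 3.80 and 3.78 on day 3, 5.98 and 6.04 on day 4, 20.8 in the day 5 pool and 8.10 and 29.8 on day 8. Day 8 exceeded day 3 by 1.61 ± 0.47 (limma adjusted p = 0.0211), with the protected array higher than the diabetogenic one by 1.64. Its other 2 probe sets differed by -0.10 and 0.71. Bub1b, which holds back anaphase until all chromosomes are attached, was called higher by 1.47 ± 0.46 (limma adjusted p = 0.0289), but 1 array carried this: it was at 14.1 on the diabetogenic day 8 array and between 1.0 and 3.71 on the other 7, and in the protected arm alone day 8 exceeded day 3 by 0.67. Its other 2 probe sets differed by 0.17 and 0.41. With probe sets averaged, with quantile normalization or without the arm as a block, neither Cdc20 nor Bub1b was called, and Bub1b was not called with cyclic loess normalization, with the filter at the 75th percentile or without the variance trend either.

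Between day 3 and day 4, 1 member was called higher (Ccne1, above) and 3 lower, all 4 of them replication genes, against 4.64% of all genes called higher and 17.3% lower. The median difference was 0.01 over the replication members and also 0.01 over the mitosis members, and -0.14 over all genes tested. Pcna, the sliding clamp of the replicative polymerases, had 21.9 in untreated islets, 26.3 and 29.3 on day 3, 2.12 and 12.9 on day 4, 23.9 in the day 5 pool and 3.29 and 22.05 on day 8. Its log2 difference of day 4 from day 3 was -1.90 ± 0.52 (limma adjusted p = 0.00810). Without the arm as a block, or with quantile or cyclic loess normalization, it was not called. It has a single probe set. Mcm6 differed by -1.22 ± 0.43 (limma adjusted p = 0.0399) and Mcm7 by -1.25 ± 0.46 (limma adjusted p = 0.0493), from 7.13 and 7.46 for Mcm6 and 13.5 and 12.6 for Mcm7 on day 3. Other probe sets differed by -0.03 and -0.37 for Mcm6 and by -0.05, -0.90 and 0.19 for Mcm7, and both calls were lost with probe sets averaged, with quantile or cyclic loess normalization, with 4 times the pseudocount, without the arm as a block or without the filter on dim probe sets.

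The largest uncalled differences from day 3 among the mitosis genes were downward. Birc5, or survivin, a subunit of the chromosomal passenger complex, had 4.77 in untreated islets, 7.41 and 5.98 on day 3, 2.11 and 1.18 on day 4, 14.6 in the day 5 pool and 1.77 and 12.1 on day 8 (day 4 against day 3: -1.23 ± 0.47, limma adjusted p = 0.0622, and 0.0490 with each array centred on its median). Plk1, a kinase needed at several steps of mitosis, had 7.24 in untreated islets, 8.40 and 9.14 on day 3, 6.38 and 1.51 on day 4, 7.72 in the day 5 pool and 1.09 and 4.89 on day 8 (day 8 against day 3: -1.19 ± 0.47, limma adjusted p = 0.0868). Birc5 was thus brightest in the protected arm on days 5 and 8, and Plk1 on the day 3 arrays. Mcm4 went from 8.18 and 8.45 on day 3 to 2.94 and 3.70 on day 8 (-0.94 ± 0.43, limma adjusted p = 0.145). The subunits of the MCM helicase, which work as 1 complex, therefore did not share a time course on these probe sets: Mcm5 was highest on day 8, Mcm4 on day 3, and Mcm3 was at 5.94 and 3.59 on day 4 and at 3.10 and 1.45 on day 8. These courses hold for the probe sets used only. The other Mcm4 probe set was highest on the diabetogenic day 8 array (9.13, protected 1.54). Other Mcm3 probe sets differed by 0.27, -0.19, -0.26 and 0.25 between day 8 and day 3, against -0.53 for the one used. Kif20a, a kinesin of cytokinesis, ranged from 1.0 to 5.14, with its highest values, 4.80 and 5.14, in the protected arm on days 4 and 5 (day 4 against day 3: 0.65 ± 0.39, limma adjusted p = 0.259). It passed the filter through those arrays alone.

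**Figure D3:**
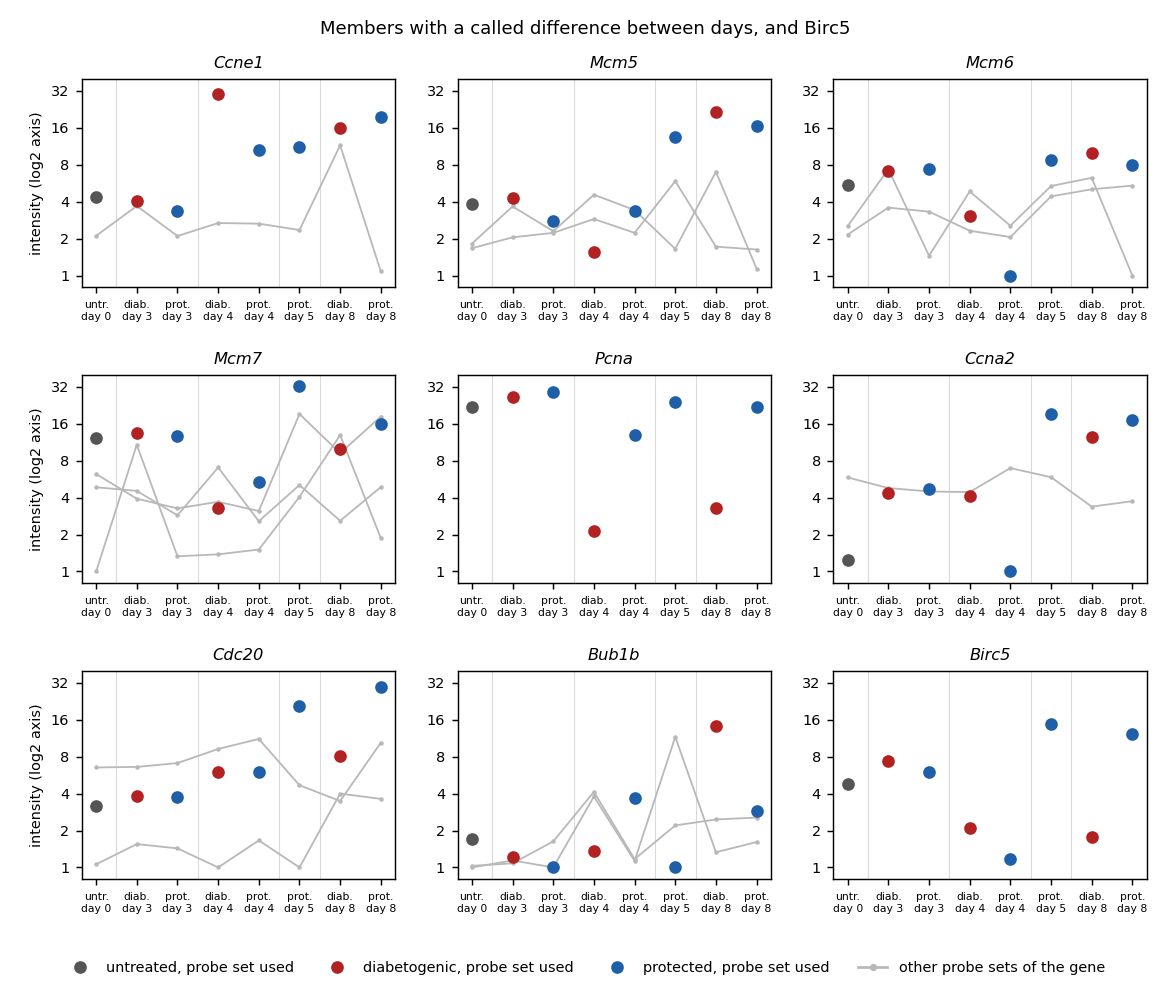
Intensities on a log2 axis for the 8 members called between any days, and for Birc5, on the 8 arrays, with large points for the probe set used and grey lines joining the values of each other probe set of the gene. The probe sets used for Mcm5 and Ccna2 are high on all 3 arrays of days 5 and 8 and no other probe set of either gene is, and Pcna, with 1 probe set, is low in the diabetogenic arm on days 4 and 8.

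The promoters of 5 members are shown to set the known elements of both groups beside the data. Mcm5, Mcm6, Cdc20 and Cdk1 were higher on the 3 arrays of days 5 and 8 than on all others, and Top2a, highest in the day 5 pool, was lowest on the diabetogenic day 8 array. A promoter was in the RefSeq table (GRCm38.p6) for 30 of the 36 members. Aurkb, Ccna2, Ccne2, Foxm1, Kif20a and Mcm4 were not matched. Below are the bases just before the transcription start, 5' to 3' on the gene's strand. Capitals mark the E2F motifs TTTCCCGC, TTTGGCGC and TTTCGCGC, the cell cycle homology region TTTGAA and the CCAAT box CCAAT, each searched on both strands, so that ATTGG and TTCAAA are matches in reverse. Where 2 E2F motifs overlap the capitals run together.
Mcm5, chr8:75109349-75109508, plus strand: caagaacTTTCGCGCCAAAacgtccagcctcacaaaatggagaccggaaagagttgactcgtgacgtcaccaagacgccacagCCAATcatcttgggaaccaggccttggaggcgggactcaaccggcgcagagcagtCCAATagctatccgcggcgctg
Mcm6, chr1:128359706-128359825, minus strand: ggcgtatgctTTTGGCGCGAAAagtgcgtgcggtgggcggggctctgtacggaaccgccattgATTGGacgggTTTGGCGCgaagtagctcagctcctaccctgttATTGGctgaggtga
Cdc20, chr4:118437344-118437443, minus strand: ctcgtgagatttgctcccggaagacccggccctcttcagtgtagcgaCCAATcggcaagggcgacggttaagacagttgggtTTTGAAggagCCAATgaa
Cdk1, chr10:69352913-69353052, minus strand: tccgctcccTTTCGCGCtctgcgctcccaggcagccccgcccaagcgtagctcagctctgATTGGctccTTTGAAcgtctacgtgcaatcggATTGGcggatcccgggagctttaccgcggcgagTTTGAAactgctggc
Top2a, chr11:99024190-99024299, minus strand: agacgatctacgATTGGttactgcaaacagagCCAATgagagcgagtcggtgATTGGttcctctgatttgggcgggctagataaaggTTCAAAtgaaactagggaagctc

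The Mcm5 and Mcm6 stretches hold overlapping E2F motifs that begin at -153 and -149 in Mcm5 and at -110 and -106 in Mcm6, counted back from the last base before the start as -1, and Mcm6 holds another at -47. Cdc20 and Top2a hold no E2F motif in these stretches and a TTTGAA at -18 and -23, each with CCAAT boxes in the same stretch. Cdk1 holds both kinds, with E2F at -131 and TTTGAA at -71 and -15. Over the whole window of 250 bases before and 50 after the start, an E2F motif was found in 5 of 14 replication members, 1 of 16 mitosis members and 1.84% of the 32851 promoters in the table. TTTGAA was found in 2 of 14 replication members, 12 of 16 mitosis members and 17.9% of all promoters. A CCAAT box was found in 9 of 14, 15 of 16 and 37.4%. Of the replication genes called between days, Mcm5, Mcm6 and Mcm7 hold an E2F motif in this window and Ccne1 and Pcna do not, while Mcm3, Cdc6 and Cdk1, which were not called, do. A match to these letters is a description and not a site of binding.

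The arms were compared over days 3, 4 and 8, with the day as a block. No member was called, against 17 of 16397 genes (0.104%), and 1 member had an unadjusted p under 0.05, as 8.92% of all genes did. The median difference, diabetogenic minus protected, was 0.07 over the replication members and 0.00 over the mitosis members, against -0.07 over all genes tested. A p that misses the threshold does not show that the arms were alike: the median SE of a member was 0.35 on the log2 scale.

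The member with an unadjusted p under 0.05 was Pcna, lower in the diabetogenic arm by a log2 difference of -1.37 ± 0.42 (limma unadjusted p = 0.00283, adjusted p = 0.371). The arms were close on day 3, at 26.3 and 29.3, and apart on day 4 (2.12 and 12.9) and day 8 (3.29 and 22.05). Without the day 3 arrays it was called at -1.99 (limma adjusted p = 0.0497). The share of bright probe sets was also lower on both of these diabetogenic arrays, and its part in the difference was not tested. With cyclic loess normalization, which aligns the arrays at every level, the difference in Pcna between the arms was -0.92.

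The next largest arm differences were not called. Top2a, the topoisomerase that untangles sister chromatids, had 4.82 in untreated islets, 6.45 and 6.74 on day 3, 5.83 and 9.0 on day 4, 15.7 in the day 5 pool and 2.82 and 12.9 on day 8 (-0.71 ± 0.38, limma adjusted p = 0.589). Foxm1, the factor that drives transcription of G2 genes, had 3.58 and 12.5 on day 4 and lay between 2.07 and 4.63 elsewhere (-0.70 ± 0.35, limma adjusted p = 0.564). Ube2c, the E2 enzyme of the anaphase-promoting complex, had 3.66 in untreated islets, 3.26 and 3.61 on day 3, 1.11 and 5.58 on day 4, 5.02 in the day 5 pool and 4.83 and 8.48 on day 8 (-0.65 ± 0.35, limma adjusted p = 0.593). Ccnb2, or cyclin B2, had 5.31 in untreated islets, 5.95 on day 5, 1.70 and 5.6 on day 8 and 1.26 to 3.81 on days 3 and 4 (-0.64 ± 0.32, limma adjusted p = 0.574). All 4 were lower in the diabetogenic arm on each of the 3 days, with log2 differences of -0.05 to -1.59. In the other direction Kif11 (0.51 ± 0.35), Mcm3 (0.47 ± 0.33), Tyms (0.43 ± 0.33), the thymidylate synthase, and Ttk (0.36 ± 0.32) were higher on each day, with limma adjusted p-values of 0.676 to 0.754 and intensities of 1.0 to 11.0. Other probe sets of some of these genes went the opposite way between the arms, by 0.68 and 0.14 for 2 of Top2a, 0.64 for 1 of Foxm1, -0.10 for 1 of Kif11, -0.80 and -0.29 for 2 of Mcm3 and -0.31 and -0.12 for 2 of Tyms. Ube2c and Ccnb2 have a single probe set.

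More members were 2-fold apart between the arms on the later days, as were more of all genes. On day 3 no member differed 2-fold between the arms (1.4% of all genes were higher in the diabetogenic arm and 0.506% lower). On day 4, 3 were higher (Ccna2, Ccne1 and Plk1) and 3 lower (Foxm1, Pcna and Ube2c), against 5.99% and 14.2%. On day 8, 4 were higher (Bub1b, Cenpa, Cenpe and Kif11) and 6 lower (Birc5, Ccnb2, Cdc20, Pcna, Plk1 and Top2a), against 9.39% and 14.1%. Of these 10, 9 are mitosis genes, so the probe sets used for genes of the same phase lay on opposite sides of the same pair of arrays. Other probe sets of these genes went several ways on that pair (diabetogenic first). Both others of Cenpa were reversed (3.07 and 8.74, 2.10 and 4.59), as was 1 of Top2a (4.85 and 1.40). Those of Bub1b (1.33 and 1.61, 2.46 and 2.55) and Kif11 (4.72 and 4.22, 1.33 and 1.54) differed little. The other of Cenpe (6.97 and 1.49) and 1 of Cdc20 (3.48 and 10.4) went the same way as the set used. Kif11, the kinesin that pushes spindle poles apart, had 11.0 on the diabetogenic and 3.65 on the protected day 8 array, Cenpa 10.6 and 4.12, and Cenpe, the kinetochore motor, 8.28 and 2.39. On the other arrays these 3 lay between 1.08 and 5.37. Each of these differences rests on 1 array per arm.

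**Figure D4:**
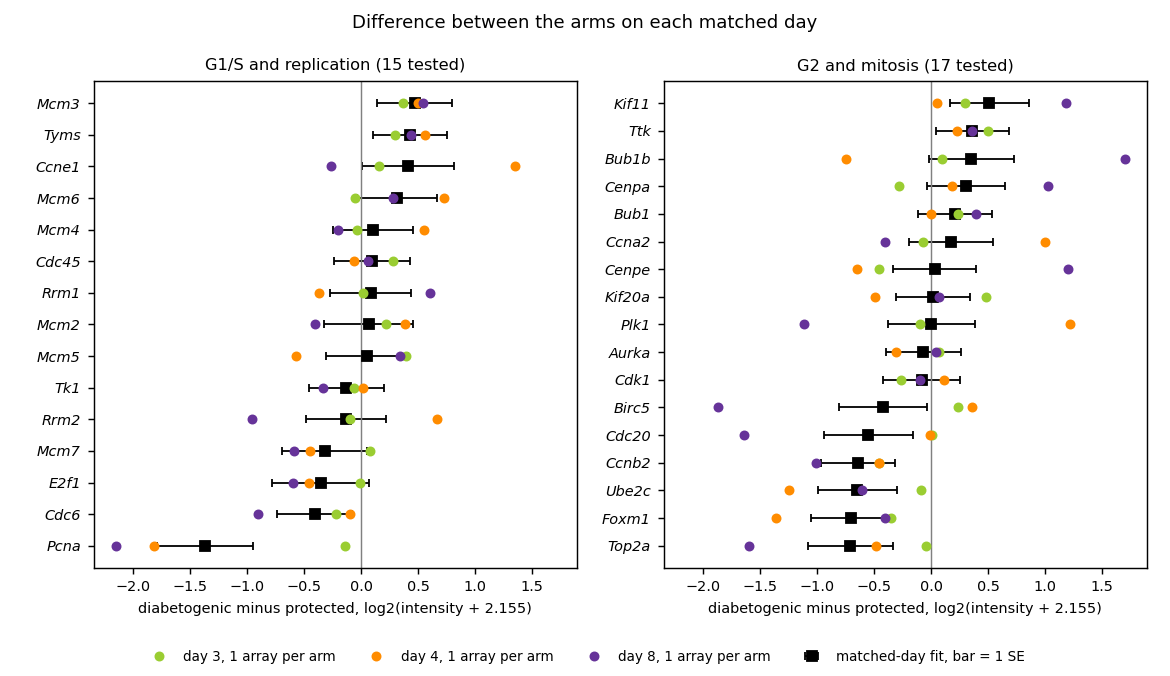
Coloured points give the log2 difference between the diabetogenic and the protected array of day 3, 4 or 8 for each tested member, and black squares with bars of 1 SE give the fit over the 3 days. The day 3 points lie near 0 and the day 8 points spread to both sides, with Pcna at -2.15 and Bub1b at 1.70.

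Set against the single untreated array, no member and no gene of 16397 was called in either arm (0.0%), and no member had an unadjusted p under 0.05, while 2.69% of all genes did in the diabetogenic and 2.22% in the protected arm. The spread there is that between days. The largest member differences were Pcna (-1.46 ± 1.02) and Ccna2 (1.31 ± 0.91) in the diabetogenic arm and Ccna2 (1.52 ± 0.89) and Cdc20 (1.37 ± 0.85) in the protected arm. The change per day also differed between the arms for no member and no gene (0.0%). At an unadjusted p under 0.05, 2 members, Bub1b at 0.40 ± 0.16 and Cenpe at 0.37 ± 0.17 log2 units per day, rose more steeply in the diabetogenic arm (limma unadjusted p = 0.0238 and 0.0460, adjusted p = 1.0 for both), among 1.99% of all genes.

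The remaining members were called in no comparison. E2f1, whose product switches on the replication genes, lay between 13.2 and 25.5, above the 75th percentile of every array, highest in the protected arm on days 4 and 8. With cyclic loess normalization it was called higher than day 3 on both days, by 1.97 on day 4 and 1.17 on day 8 (limma adjusted p = 0.00243 and 0.0425), and with no other setting. Mcm2 lay between 8.65 and 17.9 on all arrays. Cdk1, the kinase of mitotic entry, had 2.44 in untreated islets, 3.39 to 4.51 on days 3 and 4, 9.75 on day 5 and 5.09 and 5.61 on day 8, and day 8 differed from day 4 by 0.34 ± 0.41. Aurka, the spindle pole kinase, went from 1.42 in untreated islets to 4.97 to 5.53 on the late arrays. Rrm2, the regulated subunit of ribonucleotide reductase, had 9.17 on day 5 and 2.04 to 5.99 elsewhere. Rrm1, its partner, dipped to 2.13 and 3.38 on day 4 and lay between 4.78 and 8.35 on the other arrays. These courses hold for the probe sets used only. Other Rrm1 probe sets differed by 0.72 and 0.18 between day 4 and day 3, against -0.95 for the one used. Other Rrm2 probe sets were at 3.15 and 1.0 on day 5, with their highest values on the diabetogenic arrays of day 3 (6.87) and day 4 (7.33). Cdc6 and Cdc45, which load and activate the helicase, stayed at or below 5.94, and Bub1, a checkpoint kinase, at or below 4.28.

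Further cell cycle genes were read from 3 lists. Of 48 other mitosis genes tested, 8 were called higher and 3 lower on day 8 than on day 3 (3.78% and 10.5% of all genes), and 2 higher and none lower than on day 4 (0.909% and 0.238%). Against day 3 these were led by Incenp (2.44 ± 0.50) and Hmmr (2.13 ± 0.57), with Cks1b (-2.15 ± 0.49), Spc25 (-2.10 ± 0.50) and Melk (-1.73 ± 0.51) lowest. Some genes of this list, among them Kif4, Kif18b and Kif23, lay below the array median on the arrays of days 0 and 3. They were tested through later arrays alone, so high values there were bound to appear. The count called higher than on day 3 is therefore no support for a rise. Incenp, the scaffold of the chromosomal passenger complex, and Stmn1, a microtubule destabiliser, were the 2 called against day 4 (2.67 ± 0.50 and 2.74 ± 0.63, limma adjusted p = 0.00500 and 0.0264). Of 37 other replication genes, 2 were called higher (Pold1 and Pola1, polymerase subunits, 1.65 ± 0.50 and 1.44 ± 0.43) and 1 lower (Mcm10, -1.52 ± 0.43) on day 8 against day 3, and none in either direction against day 4. Pola1 was above the array median only on the arrays of days 4 and 8. It was tested through those arrays alone, so a rise from day 3 was bound to appear in it. The median differences from day 4 were 0.29 in both lists, against 0.14 over all genes. In neither list was a gene called between the arms.

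Between day 3 and day 4, 6 of the other mitosis genes were called higher, led by Hmmr (1.89 ± 0.57) and Kif18b (1.78 ± 0.44), and 5 lower, led by Spc25 (-3.19 ± 0.50), Cks1b (-2.50 ± 0.49) and Bub3 (-2.15 ± 0.47). Of all genes 4.64% were called higher and 17.3% lower. Kif18b lay below the array median on days 0 and 3 and above it on all later arrays. It passed the filter through the later arrays alone, so a rise from day 3 was bound to appear in it. Anln, Kif4 and Kif23 of the same list also lay below the median on days 0 and 3. They too were tested through later arrays alone, so the count called higher is no support for a rise. Of the other replication genes 2 were called higher, Pola1 (1.55 ± 0.43) and Rfc5 (1.25 ± 0.44), and 2 lower, Rpa1 (-2.61 ± 0.56) and Rfc1 (-1.37 ± 0.45). Pola1 was tested only through its values on days 4 and 8, as said above. Of 26 tested G1 regulators and brakes, E2f5 was called higher (5.27 ± 0.92) and 5 were called lower, among them Btg1 (-2.92 ± 0.56), Ccnd2 (-2.25 ± 0.81) and Gadd45g (-2.24 ± 0.45). Ccnd2, cyclin D2, was at 284 in untreated islets, 191 and 221 on day 3, 17.2 and 96.4 on day 4, 103 in the day 5 pool and 20.1 and 73.8 on day 8. It was lowest in the diabetogenic arm on days 4 and 8, as Pcna was. Cdkn1a, the p21 inhibitor, was at 5.29 in untreated islets and at 8.85 to 52.6 after transfer, higher in the protected arm on each day (-1.04 ± 0.44, limma adjusted p = 0.512). On day 8 against day 3, E2f5 (4.88 ± 0.92) was called higher and Gadd45g and Rb1 lower (-2.25 ± 0.45 and -1.51 ± 0.43), and no G1 gene was called against day 4.

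Summed intensities of macrophage and T cell markers were higher on the day 8 arrays than in untreated islets, and also on the protected day 4 array, where the macrophage sum was highest. The summed intensity of 13 macrophage and monocyte genes was 76.2 in untreated islets, 176 and 249 on day 3, 180 and 1522 on day 4, 1100 in the day 5 pool and 1420 and 1103 on day 8, most of it from Csf1r (1386 on the protected day 4 array). That of 13 T cell genes was 47.9 in untreated islets, 56.1 and 59.2 on day 3, 76.6 and 97.4 on day 4, 89.1 in the day 5 pool and 119 and 145 on day 8. Their median was 2.69 in untreated islets and 2.89 and 6.79 on day 8. On the diabetogenic day 8 array most of the rise came from Zap70 (11.8 to 35.7) and Thy1 (4.77 to 30.1). Zap70 was at 24.3 and 29.4 on day 4 but at 12.7 on day 5. Il2ra (6.50 to 2.19) and Cd5 (2.54 to 1.73) were lower on that diabetogenic array than in untreated islets. The summed intensity of 7 stromal genes was 53.8 to 81.6 up to day 4, 299 on day 5 and 326 and 682 on day 8. Most of these late sums came from Col1a2, at 161 on day 5 and 223 and 428 on day 8. Other stromal genes went down from untreated islets. Dcn went from 11.8 to 1.91 and 9.20 on day 8, Acta2 from 8.92 to 6.80 on the diabetogenic array and Lum from 3.51 to 1.98 on the protected one. Against day 4, 2 of 10 tested T cell genes, 2 of 13 macrophage genes and 2 of 7 stromal genes were called higher on day 8 and none lower, against 0.909% and 0.238% of all genes. Among the genes tested, Icos of the T cell list passed the filter through the arrays of days 5 and 8 alone. Itgam of the macrophage list passed through those of day 8 alone. A rise from day 4 was bound to appear in both. Not all defining T cell markers moved: Cd3g stayed at or below 3.02, Cd4 reached 9.66 on the diabetogenic day 4 array and 2.49 at most elsewhere, and Cd3e was at 1.96 in untreated islets, 3.19 and 7.56 on day 3, 3.44 and 23.7 on day 4, 2.76 in the day 5 pool and 9.71 and 19.02 on day 8. The 4 B cell genes summed to 13.3 to 24.5 on all arrays.

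The islet markers went the other way in part. Of 9 beta cell genes tested, 6 were called lower on day 4 and 5 on day 8 than on day 3 (17.3% and 10.5% of all genes), and none on day 8 against day 4. Pdx1 was at 77.5 in untreated islets and at 3.01 and 2.35 on day 4, while Ins2 stayed between 3409 and 6359. The acinar genes, which mark exocrine tissue caught beside the islets, summed to 296 and 354 in the diabetogenic arm on days 4 and 8, where Pcna was lowest, and to 1222 to 6822 on the other 6. The part of these cell types in the members' values was not tested, and the arrays do not say which cells held the transcripts.

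**Figure D5:**
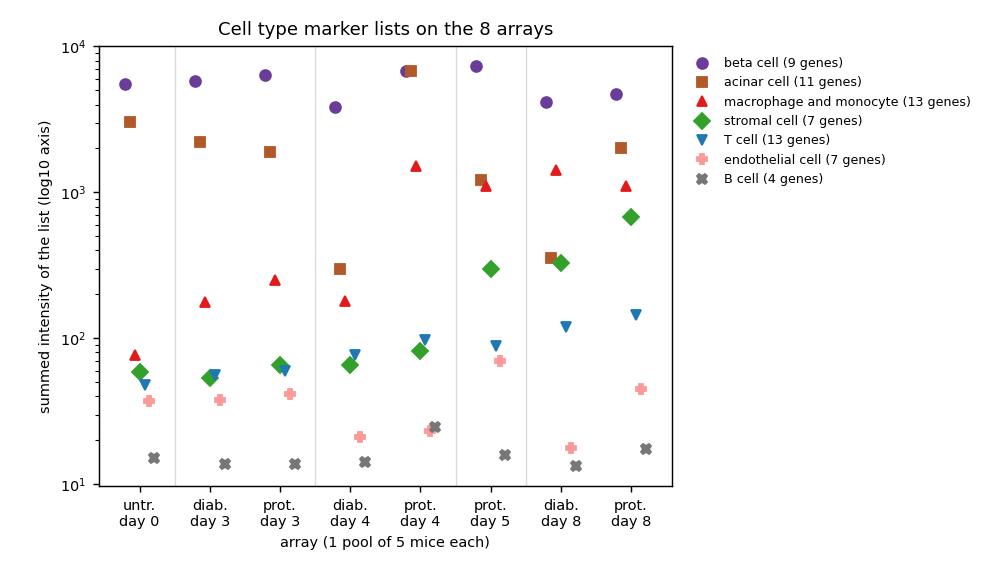
Points give the summed intensity of 7 marker lists on each array, on a log10 axis. The T cell, stromal and macrophage sums are higher on the day 8 arrays than in untreated islets, and the acinar sum is lowest in the diabetogenic arm on days 4 and 8.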

How the data were processed

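The members and gene lists were chosen with earlier results of these data known. The authors deposited linear probe set intensities for 45101 probe sets on 8 Affymetrix arrays; the sources used here do not say how they were summarised and scaled. RNA was amplified from about 30 ng, per the labels' protocols. Names came from the platform's annotation of 2016 (34958 with 1 symbol, 932 with several, 9211 with none), and only those with 1 symbol were used. A pseudocount of 2.155 was added before log2, and no further normalization was applied, as array medians on that scale lay within 0.21. Genes at or above the array median on at least 2 arrays were tested with limma 3.58.1 in R 4.3.3 (lmFit, eBayes with a variance trend, Benjamini-Hochberg over 16397 genes, threshold 0.05), after a check on simulated data. Day or arm entered as a block. The matched-day fits had 2 residual degrees of freedom per gene against 27.1 from the trend, so that SEs rest mostly on genes of like level.

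Values by array, some as ranges, are given for members that passed a test or had 1 of the 4 largest differences of their group in a comparison, and for the other cell cycle lists those called among the 3 largest differences per direction, in comparisons that called a member; Cdkn1a, Cdk1, Aurka, Rrm1, Rrm2, Kif11 and Cenpe were added after their values were seen. Alternatives were other scalings, pseudocounts, filters, probe set rules, blocks and left-out arrays.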

Additional observations from a re-analysis of the deposited data

Results flagged for a closer look

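Among the 4 protected arrays, Mcm6 on day 4 lay apart from the other 3, at 1.0 where those lay between 7.46 and 8.71. Tk1 lay apart on the same array, at 7.19 where the others lay between 2.21 and 2.64. The gap to the nearest array was 0.901 and 0.877 of the whole range. Chance flags about 1 in 20 groups of samples. The 4 arrays are of different days and are not replicates. The diabetogenic day 4 array was low for Mcm6 (3.05) and high for Tk1 (7.27) as well.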

How the results depend on the processing

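The 4 members called on day 4 against day 3 became 1 with quantile normalization, 2 with cyclic loess, 2 with 4 times the pseudocount, 2 without the filter on dim probe sets, 1 with all probe sets of a gene averaged and 1 without the arm as a block. It became 8 with the day 8 arrays left out, with Birc5, Plk1, Rrm1 and Tk1 added. The 5 called on day 8 against day 3 became 1 with quantile normalization, 0 with probe sets averaged, 3 without the variance trend and 1 without the arm block. The 2 called on day 8 against day 4 became 1 with quantile normalization, with cyclic loess, without the filter or without the variance trend, and 0 with probe sets averaged or without the arm block. Between the arms the count was 0, and 0 to 1 with 1 pair of arrays left out. The causes were not tested. No called difference changed sign under any alternative run. Centring each array on its median moved the median gene by 0.113 downward on the diabetogenic day 8 array, and cyclic loess moved it by 0.228 upward on the diabetogenic day 4 array. The labels give no replicate numbers to pair arrays by. The arms were paired by day and the days by arm, each as a block.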

Other observations

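Some other cell cycle probe sets separated the arrays of days 4 and 8 from the rest. E2f5, which encodes an E2F factor bound by Rb family proteins, reached 525 (diabetogenic) and 303 (protected) on day 4 and 364 and 254 on day 8, and lay between 4.71 and 16 on the other 4, the day 5 array included. Kif23, a kinesin of cytokinesis, was at 6.07 and 6.72 on day 4, at 9.35 and 8.00 on day 8 and between 1.0 and 1.48 elsewhere, so that it passed the filter on dim probe sets through those 4 arrays alone. Kif22, a chromosome-binding kinesin, was at 43.8 to 99.2 on those 4 arrays and between 16.7 and 29.7 elsewhere. No member was higher on all 4 of those arrays than on the other 4 (5.54% of all genes tested were), and 2 members, Mcm4 and Plk1, were lower (16.2% of all genes). The spiked controls were also brightest on those 4 arrays, and whether the 2 are linked was not tested.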
